A study of Mus musculus with 4 samples.

Results

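The clustered protocadherin genes were followed through lists of open chromatin from NMuMG cells, a line of normal mouse mammary gland epithelium. Members were all protein-coding genes of the GENCODE vM1 annotation whose symbol begins with Pcdha, Pcdhb or Pcdhg, and there were 24 of them among 22367 protein-coding genes. All 24 lie on the plus strand of chromosome 18, from the first start to the last end at chr18:37089939-38001527 (mm9), a span of 0.912 Mb. There were 2 Pcdha genes, 21 Pcdhb genes and 1 Pcdhg gene. These numbers reflect how the annotation joins transcripts. The gene Pcdha11 (ENSMUSG00000007440.7) carries 10 transcript starts of the α group and Pcdhgc5 (ENSMUSG00000023036.7) carries 10 starts of the γ group, so that the members had 46 distinct annotated starts. Pcdhb20 is a pseudogene in this annotation and was left out by the rule. RefSeq (GRCm38) names 58 genes with these prefixes, 14 α, 22 β and 22 γ. The members had 11 α starts and 10 γ starts, so several α and most γ isoforms have no start of their own in vM1.

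Clustered protocadherins are cadherin-like adhesion proteins known mainly from neurons, where each cell displays its own combination of isoforms and homophilic contact between identical combinations lets sister branches of a neuron avoid each other. In the α and γ groups every variable exon has its own promoter, encodes the extracellular and transmembrane parts of a protein, and is spliced to a short set of constant exons at the end of the group, whereas each β gene consists of its variable exon. In neurons the choice of promoter depends on the insulator protein CTCF and on cohesin, which bring promoters to enhancers downstream of the groups, and promoters that are not chosen carry DNA methylation. The last γ promoters (the C type) are known to be used more broadly than the alternate ones.

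Accessibility was measured by ATAC-seq, in which the transposase Tn5 cuts DNA that is not covered by nucleosomes. Cells in complete medium, which contained serum and insulin, received vehicle (an HCl and BSA diluent) or TGFβ1 at 5 ng per ml for 2 h, and cells deprived of serum and insulin for 6 h received vehicle or TGFβ1 at 5 ng per ml for 10 min. Each of the 4 conditions is 1 sample of the same unmodified cell line. The files are a vehicle list, a TGFβ list and a single 10 min list that the labels give to both 10 min samples, so vehicle and TGFβ could not be compared at 10 min.

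The lists held 19648 regions (vehicle), 38532 (TGFβ) and 26732 (10 min) after intervals under 150 bp were dropped and gaps under 1000 bp were closed. With 1 list per condition there was no replicate error and no test between conditions, and the files give calls without read counts. Library read totals accompany the study and were not taken as data here, and by them the vehicle library of complete medium, which has fewer regions, is deeper than its TGFβ counterpart. Intervals given with shares are exact binomial 95% intervals of counting only, and the members share a locus and related sequence. A region that is absent from a list was not called there, which does not show that the chromatin was closed. Of 10 epithelial marker genes, 4 had a region within 1000 bp of a transcription start site (TSS) in the vehicle list and 5 in each of the other lists. This was near the shares of all protein-coding genes, 41.0% (vehicle), 47.6% (TGFβ) and 46.2% (10 min). Krt8, Krt18, Krt19 and Ocln had one in all lists, Cdh1 in the 10 min list alone and Cldn4 in the TGFβ list alone, while Epcam, Cldn3, Krt7 and Esrp1 had none. Of 7 neuronal markers found in the annotation, Snap25 and Syn1 had one in the TGFβ list and none had one in the other lists. No blood marker of 4 had one, and of 3 endothelial markers only Kdr did, in the TGFβ list. Of all protein-coding genes, 7.24% had a region in the TGFβ but not the vehicle list.

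Region calls were nearly absent from the starts of the clustered protocadherins in every list. In the vehicle list 1 of the 24 members had a region within 1000 bp of any of its annotated starts (4.17%, 0.105 to 21.1%), compared with 41.0% of all protein-coding genes. The TGFβ list gave the same count, 1 of 24, against 47.6% of all genes, and the 10 min list again 1 of 24 against 46.2%. The called member was Pcdhgc5 in each list, and 39.9% of all genes were called in all 3 lists. With the 5′ end of the gene in place of every annotated start, 0 of 24 members were called, against 38.5% of all genes (vehicle), 44.5% (TGFβ) and 43.4% (10 min), because the called start is not the first of its gene. Both Pcdha genes and all 21 Pcdhb genes were without a region in every list. Annotated starts of 7.24% of all protein-coding genes, and of 0 of 24 members, had a region in the TGFβ but not the vehicle list. No region in any list was the state of 50.4% of all genes and of 23 members.

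The distances show how far the uncalled members were from the nearest region. The 11 Pcdha starts lay between 128 and 342 kb from a vehicle region, with a median of 196 kb. The 21 Pcdhb genes lay between 126 and 379 kb from one, with a median of 223 kb. The median distance over all 24 members was 205 kb in each list. Over all protein-coding genes the median was 8.77 kb (vehicle), 2.12 kb (TGFβ) and 3.44 kb (10 min). More than 100 kb separated 23 of the 24 members from a region in every list, and 19.8% (vehicle), 13.7% (TGFβ) and 17.4% (10 min) of all protein-coding genes. By start, this held for the 36 of 46 in the α and β groups, while the γ starts were nearer to a region.

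**Figure D1:**
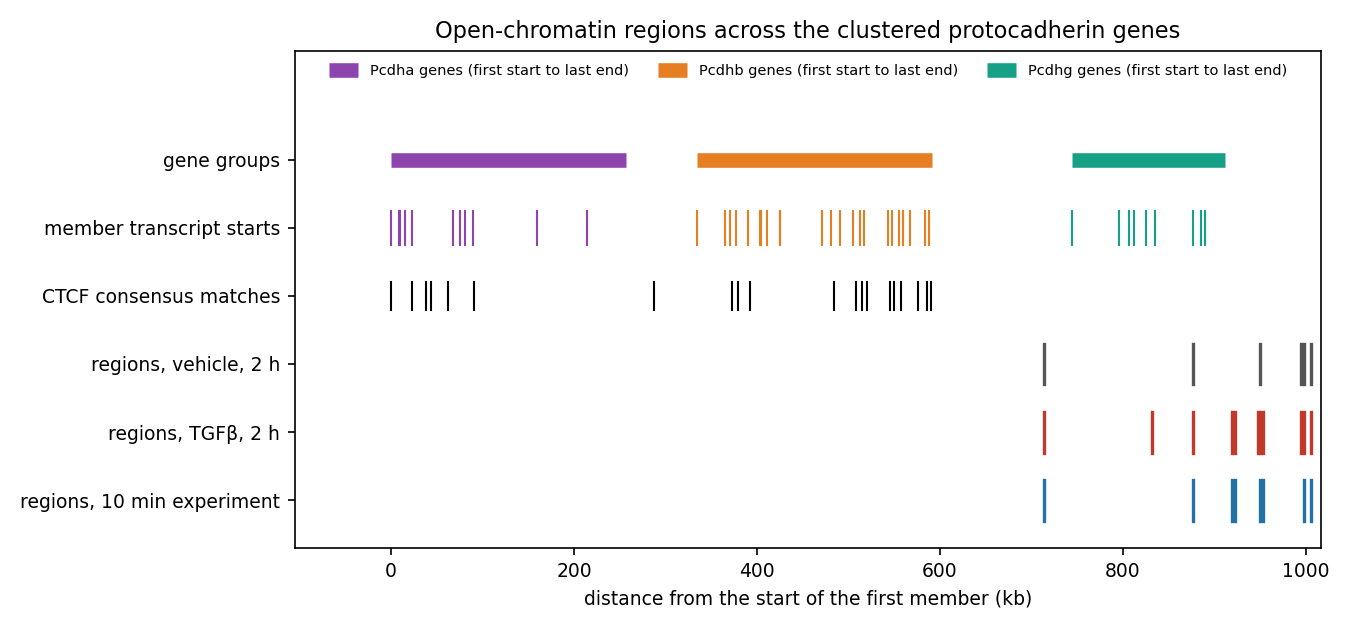
Map of the clustered protocadherin locus with 100 kb on either side, against the distance in kb from the start of the first member. Bars give the extent of the α, β and γ genes, thin ticks the 46 annotated member starts and the 20 CTCF consensus matches, and thick ticks the centres of the called regions in the vehicle, TGFβ and 10 min lists. All regions lie in the right part, from Taf7 onwards, and the α and β groups hold none.

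The called start belonged to a γ transcript, Pcdhgc5-208 (ENSMUST00000076807.4), at chr18:37966064. Its genomic span of 35464 bp is identical to that of the RefSeq gene Pcdhgc3, a C-type γ isoform, and of no other clustered protocadherin in RefSeq. The vehicle region there was chr18:37965797-37966126, from 267 bp before to 62 bp after the start. The TGFβ region was chr18:37965689-37966155, from 375 bp before to 91 bp after it. The 10 min region was chr18:37965687-37966522, from 377 bp before to 458 bp after it. All 3 regions held the start itself. The vehicle and TGFβ regions ended in the 5′ untranslated part of the first exon, and the 10 min region reached into its coding part.

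Part of the difference in width lay in the width filter. The vehicle list had a further interval of 125 bp at 153 to 277 bp after the start, and the TGFβ list had intervals of 106 bp at 182 to 287 bp and of 74 bp at 395 to 468 bp, all of which were dropped as narrower than 150 bp. In the 10 min list the same stretch belonged to 1 interval of 836 bp. The authors' score, a scaled irreproducible discovery rate that runs from 540 to a cap of 1000, was 1000 for the vehicle and for the TGFβ region and 749 for the 10 min region. Scores belong to their own list and were not compared between lists. The median score of the intervals in the 10 min list was 794, so this interval scored below the middle of its own list.

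**Figure D2:**
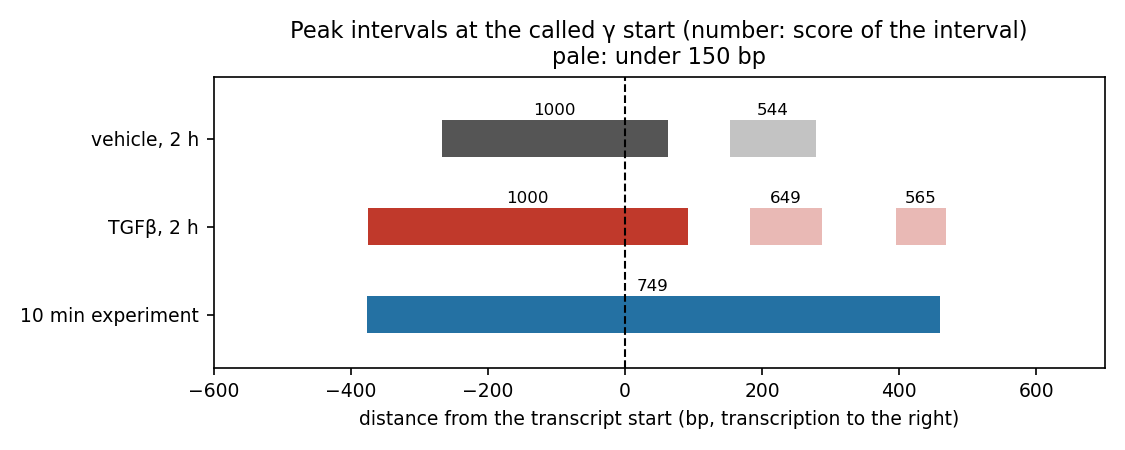
Peak intervals as deposited around the start of Pcdhgc5-208, the γ start whose span equals that of Pcdhgc3, against the distance from the start in bp. Each bar is 1 interval of the vehicle, TGFβ or 10 min list with its score above it, and pale bars are intervals under 150 bp. The start lies inside a wide interval in every list, and the 10 min interval covers the stretch that the other lists hold as narrow separate intervals.

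The other 9 annotated γ starts had no region within 1000 bp in any list. Of the 3 starts past the called one, Pcdhgc5-205 lay 8.61 kb, Pcdhgc5-203 13.1 kb and Pcdhgc5-209 13.2 kb from the nearest vehicle region, which was the one at Pcdhgc5-208. Pcdhgc5-203 has the span of the RefSeq gene Pcdhgc5, another C-type isoform. The 6 upstream γ starts were between 29965 and 80437 bp from a vehicle region. In the TGFβ list the same 6 starts were between 3854 and 35860 bp from a region. This range was shorter because of 1 region of 161 bp with a score of 637 in the TGFβ list alone, at chr18:37921220-37921380. It lies in an intron of Pcdhgc5 and of the noncoding gene Gm16882. The start of Pcdhgc5-202, whose span equals that of Pcdhga12, follows 3.85 kb later. Whether a γ start that vM1 does not annotate lies at this region was not tested. The vehicle and 10 min lists had no interval there.

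The constant exons of both groups were outside all regions. The 3 constant exons of the α group, of 59, 89 and 2712 bp, lay between 354 and 383 kb from the nearest region in each list. Those of the γ group, of 59, 89 and 1971 bp, lay between 9.59 and 33.4 kb from one. A 140 bp interval of the TGFβ list with a score of 547, chr18:37984966-37985105, was found just past the first γ constant exon and was dropped by the width filter.

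The α and β genes lay together in a stretch with no region in any list. With the 3 lists joined, nothing was called between chr18:36961724 and chr18:37803526, over 842 kb. This stretch held the starts of 23 members, 36 of the 46 annotated member starts, and the 5′ ends of 3 other protein-coding genes, Gm6756, Gm10545 and Slc25a2, the last of which encodes a mitochondrial ornithine carrier. The stretch has 0 unsequenced bases in the mm9 assembly. Its right edge is the promoter of Taf7, which encodes a subunit of the general transcription factor TFIID and stands between the β and γ groups. A region overlapped the start of Taf7 in all lists, each with the score cap, at chr18:37803723-37804024 (vehicle), chr18:37803570-37804044 (TGFβ) and chr18:37803527-37804028 (10 min).

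Stretches of this length without a region were uncommon, and few of them held so many genes. In the vehicle list 535 of 19628 gaps between neighbouring regions were at least as long (2.73%), in the TGFβ list 398 of 38512 (1.03%) and in the 10 min list 499 of 26712 (1.87%). Gaps of this length held a median of 2.0 protein-coding 5′ ends, compared with 26 in the protocadherin gap. In the joined lists 25 of 42875 gaps, this one included, held 26 or more. In 13 of these 25 the commonest gene names were olfactory receptors, and in 3 they were vomeronasal receptors, which are likewise tandem families used in neurons. Of the 1113 olfactory receptor genes, 1 (vehicle), 6 (TGFβ) and 1 (10 min) had a region at a TSS.

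**Figure D3:**
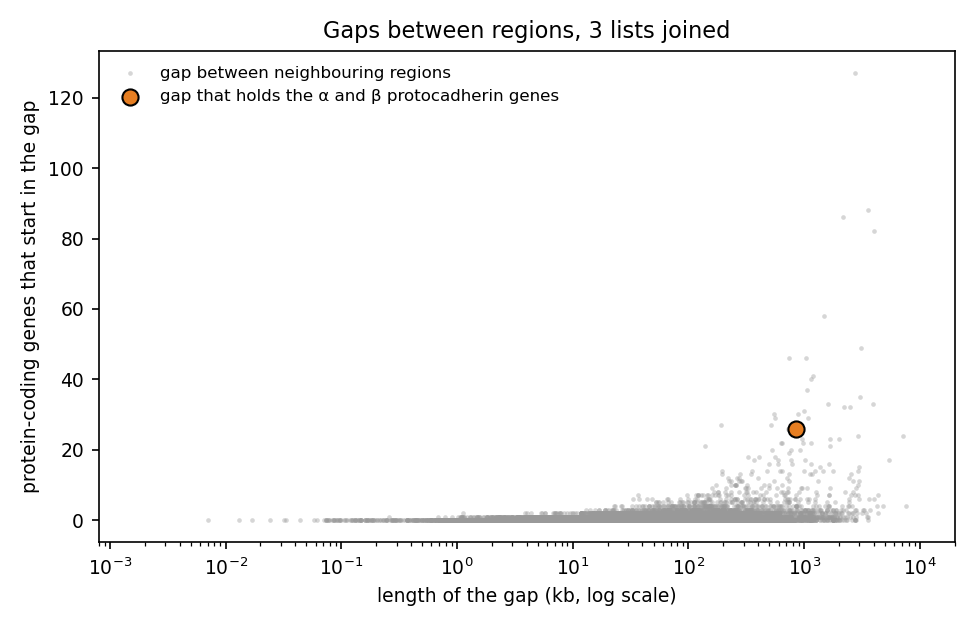
Length of each gap between neighbouring regions of the 3 lists joined (kb, log scale) against the number of protein-coding genes whose 5′ end lies in it. Each grey point is 1 of 42875 gaps, and the large point is the gap of 842 kb with 26 genes that holds the α and β protocadherins.

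Over the cluster with 100 kb on either side (chr18:36989939-38101527) 6 (vehicle), 11 (TGFβ) and 8 (10 min) regions were called. This is 5.40, 9.90 and 7.20 regions per Mb, compared with 5.27, 11.6 and 7.66 on chromosome 18 and 7.45, 14.6 and 10.1 on chromosomes 1 to 19 and X. The density was very uneven within it. From the first to the last member there were 2, 3 and 2 regions, or 2.19, 3.29 and 2.19 per Mb. The 100 kb before the first member held 0 regions in each list, and the 100 kb after the last member held 4, 8 and 6. The TGFβ to vehicle ratio of 1.83 in the cluster with its flanks rested on 11 and 6 regions, and was 1.96 over all chromosomes. With the TGFβ list shortened by score to the number of vehicle regions it was 1.17, with 7 regions, where the value over all chromosomes is 1 by construction.

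All regions past the last member lay in Diap1, which encodes the formin mDia1, a nucleator of actin filaments, and is read towards the γ group. Regions at the 5′ end of Diap1 were called in all lists with the score cap, at chr18:38094517-38095443 (vehicle), chr18:38094799-38095410 (TGFβ) and chr18:38094560-38095436 (10 min). The other 7 joined regions lay in introns of Diap1, between 7.62 and 85.9 kb past the end of the γ group. Among them, chr18:38011757-38012102 was also 959 bp from an annotated start of a Diap1 transcript, within the TSS window used here. The stretch is of interest because enhancers of the protocadherins are known to lie downstream of their groups, but the lists do not link a region to a gene.

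The intronic regions nearest to the γ group were absent from the vehicle list. At chr18:38009146-38009633 the TGFβ region of 488 bp had the score cap, and a 10 min region of 218 bp with a score of 674 overlapped it. At chr18:38011836-38012102 the TGFβ region scored 825, as did the overlapping 10 min region. A further pair at chr18:38043155-38043537, with scores of 896 (TGFβ) and 1000 (10 min), was likewise not in the vehicle list. The TGFβ list alone had chr18:38036919-38037243, with a score of 570. Of all 42895 joined regions, 14.6% were in the TGFβ and 10 min lists without the vehicle list, and 32.2% in the TGFβ list alone. Called in every list was chr18:38039823-38040155 (vehicle coordinates), with scores of 1000, 1000 and 972 in the vehicle, TGFβ and 10 min lists. Also in every list was chr18:38087477-38087841, with scores of 815, 1000 and 969. A region at chr18:38084002-38084255 with scores of 633 (vehicle) and 1000 (TGFβ) was not called at 10 min.

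Joined over the lists there were 11 regions in the cluster with its flanks. Of these, 5 were in all lists, 3 in the TGFβ and 10 min lists, 2 in the TGFβ list alone and 1 in the vehicle and TGFβ lists. In the same order, the shares of all 42895 joined regions were 38.9%, 14.6%, 32.2% and 3.92%. All 6 vehicle regions overlapped a TGFβ region (interval 54.1 to 100%), compared with 93.6% of vehicle regions over all chromosomes. Among the 11 TGFβ regions 6 were shared with vehicle (54.5%, 23.4 to 83.3%), compared with 47.6%. With the shortened TGFβ list 6 of 7 overlapped a vehicle region (85.7%), compared with 76.2% of its 19648 regions over all chromosomes. Of the 8 regions at 10 min, all overlapped a TGFβ region and 5 a vehicle region (62.5%, 24.5 to 91.5%), compared with 85.9% and 64.1%. The intervals hold the values of all chromosomes, so at this number of regions no difference was detectable. Time, medium and library all differ between the 10 min list and the others and cannot be told apart.

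Base composition around the starts differed among the groups. Within 250 bp of the start, the 25 Pcdhb starts had a median GC content of 42.3% and a median CpG observed to expected ratio of 0.413. The 11 Pcdha starts had medians of 51.3% and 0.644, and the 10 Pcdhg starts 48.9% and 0.577. Over all protein-coding genes the medians were 57.1% and 0.588. The called start, Pcdhgc5-208, had a GC content of 61.3% and a ratio of 0.766, and Pcdhgc5-204 had the highest ratio of the members, 0.947, with a GC content of 47.7% and no region. The 2 last α starts, Pcdha11-201 (with the span of Pcdhac1) and Pcdha11-202, were as rich in GC as the called start, at 62.1% and 70.5%, with ratios of 0.732 and 0.700 and no region.

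The member starts were also counted in ranges of the CpG ratio, beside all protein-coding genes. All 11 Pcdha starts, 7 Pcdhb starts and 4 Pcdhg starts had ratios from 0.5 up to 0.75, and 0 of these 22 had a region in any list. In the same range of ratios, the shares of 4557 protein-coding genes with a region at the 5′ end were 48.1% (vehicle), 56.1% (TGFβ) and 54.7% (10 min). Of the 18 starts with ratios from 0.25 up to 0.5, 17 were Pcdhb starts and 0 had a region, where the shares of all genes were 13.3%, 18.6% and 17.3%. At ratios of 0.75 and above there were 2 member starts, both of the γ group. The called start had a region in every list and Pcdhgc5-204 had none. The shares of the 7845 protein-coding genes in this range were 72.6% (vehicle), 80.0% (TGFβ) and 79.5% (10 min). A part of the CpG ratio in the calls was not tested. These counts are descriptions, since neighbouring paralogous starts are not independent.

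**Figure D4:**
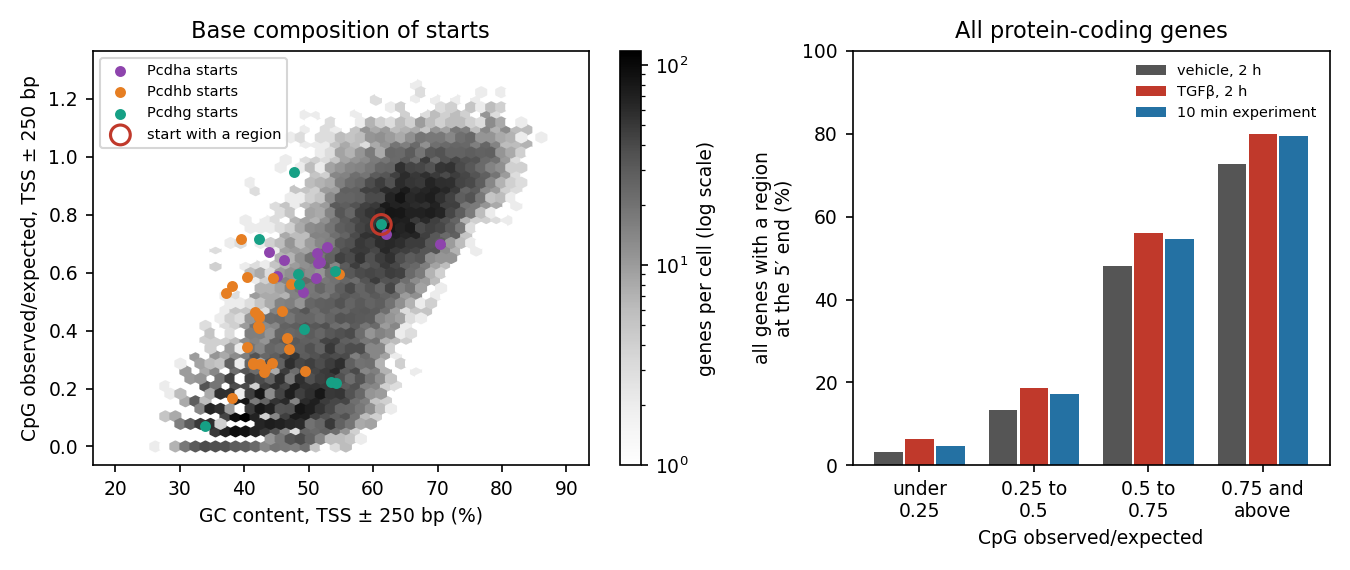
Left, GC content (%) against the CpG observed to expected ratio within 250 bp of the start, with all protein-coding genes as grey cells (number on a log scale) and the 46 member starts as coloured points, and the start with a region ringed. Right, the share of all protein-coding genes (%) with a region within 1000 bp of the 5′ end, in 4 bins of that ratio, for the vehicle, TGFβ and 10 min lists. In the bin from 0.5 to 0.75, which holds 22 member starts and no called one, about as many genes had a region as had none.

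Related exons of neighbouring protocadherins could cost reads that map to several places. Words of 75 bases, the length of the reads, were therefore looked up in the whole assembly on both strands. In the 1000 bp on either side of a start, the share of words found once was at least 89.1% at every member start, with a lower quartile of 95.5%. At 36 of the 46 starts (78.3%) at least 95% of the words were found once, compared with 85.5% of all protein-coding genes. The 10 lower ones were 6 Pcdha and 4 Pcdhb starts. Among all genes with 80 to 95% of such words, 19.5% (vehicle), 22.8% (TGFβ) and 22.3% (10 min) had a region at the 5′ end, and among those with 95% or more, 43.1%, 49.7% and 48.5%. The part of read mapping in the missing calls was not tested further.

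Matches to the CTCF consensus were frequent in the α and β groups. From the first to the last member there were 20 matches on either strand, or 21.9 per Mb, compared with 4.98 per Mb over chromosomes 1 to 19 and X. Of these, 6 lay in the Pcdha span, 13 in the Pcdhb span, 1 between them and 0 in the Pcdhg span. A match is a description of sequence and does not show that CTCF was bound. Of the 20 matches, 15 lay in coding exons of members and 5 in no member exon. Among these 5, the match at chr18:37666280-37666291 lay within the pseudogene Pcdhb20 (chr18:37663926-37667476), which is not a member. In the Pcdha group 3 matches lay inside coding exons on the strand of the genes, at 0.459 kb (Pcdha11-204), 0.456 kb (Pcdha11-208) and 0.456 kb (Pcdha11-203) past the start. The other 3 Pcdha matches lay 15.4, 21.6 and 40.2 kb past the start of Pcdha11-208. In the Pcdhb group 12 matches lay inside coding exons of 12 different genes, from Pcdhb3 to Pcdhb22, all on the opposite strand and between 2.25 and 2.43 kb past the start. As the exons are related in sequence, matches at the same place in several of them are not independent.

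All 20 matches lay in the 842 kb stretch without a region described above. It follows that none was inside a region, and the nearest region was 123 to 415 kb away. Over chromosomes 1 to 19 and X, 17.2% of 12717 matches lay inside a region of at least 1 list. Within 1000 bp of the start a CTCF match was present at 3 of 46 member starts (6.52%) and at 1.68% of all protein-coding genes. Of the 11 regions of the cluster and its flanks, 1 held a CTCF match within 200 bp of its centre, compared with 4.30% of all 42895 joined regions. It was the intronic region of Diap1 at chr18:38043154-38043537, 41.6 kb past the γ group. AP-1 matches (TGACTCA or TGAGTCA) were found in 2 of the 11 regions, compared with 30.4% of all regions, and SMAD matches (CAGACA or GTCTAGAC) in 3, compared with 34.3%. Both strands were searched, no motif is contained in another, and the region at the called γ start held none of them. Within 1000 bp of the 46 member starts, AP-1 matches were present at 9 (19.6%) and SMAD matches at 38 (82.6%), compared with 24.3% and 79.4% of all protein-coding genes.

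The genes around the cluster and the other cadherin families were counted in the same way. Over all protein-coding genes the shares called were 41.0% (vehicle), 47.6% (TGFβ) and 46.2% (10 min). A region in the TGFβ but not the vehicle list was found at 7.24% of all genes. Of 34 other protein-coding genes with a 5′ end inside the cluster or within 500 kb of it, 16 had a region at a TSS in the vehicle list and 22 in each of the other lists. Those called in all lists included Zmat2 at 136 kb before the first member, the histidyl-tRNA synthetase genes Hars and Hars2 at 147 kb, and, past the last member, Diap1 at 93.6 kb and the histone deacetylase gene Hdac3 at 113 kb. Inside the cluster Taf7 was called in all lists, and Slc25a2, Gm10545 and 3222401L13Rik in none. Of 12 protocadherins outside the clustered groups, the vehicle list called 1, the TGFβ list 4 and the 10 min list 1. Pcdh7 was called in the vehicle and TGFβ lists, Pcdh1 in the TGFβ and 10 min lists, and Pcdh11x and Pcdh17 in the TGFβ list alone. Pcdh1 lies 370 kb past the last clustered member, and Pcdh12, at 443 kb, had no region in any list.

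Of 19 cadherin genes, the vehicle list called 2, the TGFβ list 5 and the 10 min list 4. Cdh2 (N-cadherin) and Cdh6 were in all of them, Cdh24 in the TGFβ and 10 min lists, Cdh8 and Cdh13 in the TGFβ list alone and Cdh1 (E-cadherin) in the 10 min list alone. Of 39 genes of the Hox clusters, which are tandem developmental genes, 1, 4 and 3 were called in the vehicle, TGFβ and 10 min lists. Of 66 clustered histone genes, which dividing cells use together, 41, 43 and 43 were called. The count of the protocadherin members, 1 of 24, was the same in every list. These families were not tested against each other.

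**Figure D5:**
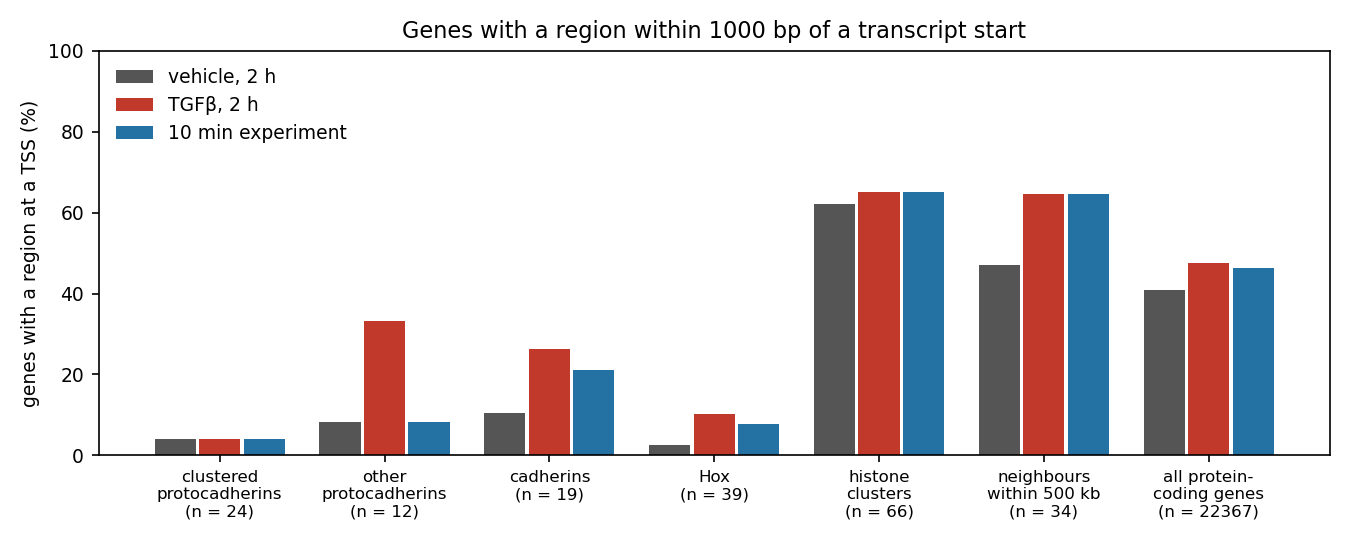
Share of genes (%) with a region within 1000 bp of an annotated start in the vehicle, TGFβ and 10 min lists, by gene family, with the number of genes under each. Bars have no error because each list is 1 per condition. The clustered protocadherins stand at 4.17% in every list and all protein-coding genes at 41.0 to 47.6%.

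The genes for factors known to act on the cluster were counted beside all protein-coding genes. Of all these genes, 41.0% (vehicle), 47.6% (TGFβ) and 46.2% (10 min) had a region at a TSS. Of 11 CTCF and cohesin genes found in the annotation, among them Ctcf, Rad21, Smc1a, Smc3, Stag1, Stag2, the loader Nipbl and the release factor Wapal, all 11 had a region at a TSS in every list. Of 14 genes for repressors or silencing factors, 10 (vehicle), 13 (TGFβ) and 11 (10 min) were called. Smchd1, a silencing factor of this cluster, Rest, a repressor of neuronal genes, Setdb1 and Trim28, which set up repressive histone methylation, Dnmt1, which maintains DNA methylation, and Hdac3 were called in all lists. The DNA methyltransferase genes that methylate new sites differed. Dnmt3a was called in the TGFβ list alone, as was Ehmt2, a histone methyltransferase gene, and Dnmt3b in the vehicle list alone. Each of these rests on a single list. A region in the TGFβ but not the vehicle list was found at 7.24% of all protein-coding genes, and the opposite at 0.621%.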

How the data were processed

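The deposited files were peak lists from ATAC-seq. Per the methods, the authors trimmed, aligned and filtered reads with the ENCODE ATAC-seq pipeline (the aligner is not given in the sources used here; the build was mm9), called peaks with MACS2 2.1.2 (q 0.01) and kept peaks with an irreproducible discovery rate of at most 0.05 between 2 biological replicates. The labels give 1 sample per condition for these lists, so what served as replicates, and what agreement the score measures, is unresolved. The deposited score is that rate, scaled and capped by the authors. No Tn5 shift is named for the calls. Lists per replicate were not analysed here. The labels of the TGFβ 10 min sample conflict on its time, and the title was followed.

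Distinct intervals under 150 bp were dropped and the rest merged across gaps under 1000 bp, after the refinement in the methods but with code of this work. All regions lie within the mm9 chromosomes, so NCBIM37 and GENCODE vM1 were used. TSS windows were 1000 bp on either side of every annotated transcript start. Spans were matched to RefSeq names by equal length, and 22 of 46 starts matched. Coordinates are 1-based. Code (Python 3.11.15, pandas 2.3.3, scipy 1.17.1, numba 0.67.0) was tested on simulated data. Members, gene lists and the naming rule (every called member, every region of the cluster) were chosen with earlier results of these data known.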

Additional observations from a re-analysis of the deposited data

How the results depend on the processing

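All alternatives were planned. With the 5′ end of the gene in place of every transcript start, 0 members had a region in any list, because the called start is not the first of its gene. With intervals at or above each list's median score the 10 min count was 0, and the vehicle and TGFβ counts stayed at 1. Without flanks the cluster held 2, 3 and 2 regions (vehicle, TGFβ, 10 min), and with flanks of 200 kb 14, 21 and 17. With the longer lists shortened to the number of vehicle regions there were 7 TGFβ regions, a ratio of 1.17 and a share of 85.7% overlapping a vehicle region (76.2% over all chromosomes). Motif windows of 500 bp gave SMAD matches in 72.7% of cluster regions, compared with 62.2% of all 42895 joined regions at this window. With words of 50 bases, 60.9% of member starts reached 95% unique words. At this length the lower quartile of unique words was 91.8% over the member starts and 96.4% over all protein-coding genes. The causes were not tested beyond the construction of each alternative. Over 13 results, 83 values were recomputed, of which 68 kept within their counting interval or 1.5 times and 15, all given here, did not. No paired analysis was possible because the lists carry no replicate numbers. The lists hold calls without counts, so no limit on missed regions was computed.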

Other observations

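Over all protein-coding genes, 41.0% (vehicle), 47.6% (TGFβ) and 46.2% (10 min) had a region at a TSS. Among 8 genes for proteins known to bind protocadherins or to act downstream of them, 6, 6 and 7 had one. These included Ptk2 and Ptk2b, the focal adhesion kinases that γ protocadherins bind, Wasf1 and Cyfip1 of the WAVE complex, and Axin1 and Ctnnb1 of Wnt signalling, in all lists. Celsr3, an atypical cadherin, was called in the 10 min list alone, and the receptor gene Ret in none.

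Before the width filter the cluster with its flanks had 1 interval under 150 bp in the vehicle list and 4 in the TGFβ list. In the TGFβ list 2 of them lay just after the called γ start and 1 lay past the first γ constant exon. The remaining 1, chr18:38081401-38081547 with a score of 610, lay in an intron of Diap1.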
